A study of Homo sapiens with 12 samples.

Results

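Channel genes were taken from the deposited expression table by their symbols, namely those starting with KCN or CACN and those made of SCN, a number and A or B, without KCNQ1OT1 and the antisense RNAs. These symbols name the subunits of potassium channels, of voltage-gated calcium channels and of voltage-gated sodium channels. The table held 120 such symbols among 22784, and 57 of them had a normalized count of at least 10 in at least 3 of the 10 libraries and form the gene group described here. The same threshold was passed by 14839 symbols in all. The members were thus selected on their measured levels, and 8 of them reached the threshold in DMSO libraries alone: CACNA1I, CACNG7, CACNG8, KCNA2, KCNH2, KCNJ4, KCNK1 and SCN2B. A gene of that kind had to lie lower in the treated libraries, so against DMSO these 8 are described by their values with no test, and the counts of calls over the members and over each class that include them are also given without them. Conversely, KCNN2 reached the threshold in treated libraries alone and had to lie higher in them, so it is likewise described with no test.

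Potassium channels let potassium leave the cell and pull the membrane towards its resting potential, whereas voltage-gated sodium and calcium channels open on depolarization and carry inward current. A pore-forming subunit makes the conducting path, and auxiliary subunits set its gating and its delivery to the membrane. In the smooth muscle of the uterus, voltage-gated calcium channels supply the calcium that starts a contraction, and calcium-activated potassium channels oppose it.

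RNA-seq was performed on SK-UT-1, an established cell line from a human uterine leiomyosarcoma, a malignant tumor of smooth muscle. The cells were treated for 48 h with JQ1 at 5 µM or I-BET-762 at 5 µM, small molecules that block the acetyl-lysine pocket of the bromodomain and extra-terminal (BET) proteins, or were kept as the vehicle (DMSO) control. The labels give 12 libraries in 3 groups of 4. Values of 3 DMSO, 4 JQ1 and 3 I-BET-762 libraries were used, and those of replicate 16 (DMSO) and replicate 24 (I-BET-762) were not analysed here. All libraries come from 1 cell line, and since the labels name no separate cultures, the p-values measure the spread between these libraries, which may be technical.

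Each library held between 35564590 and 39658988 reads on genes, and a count of 0 allows a level of up to 3 reads, which came to between 2.73 and 3.30 normalized counts and covers counting error only. Of 10 smooth muscle markers, 9 were in the table and 7 were detected by the same threshold, led by CALD1, ACTA2, SMTN and TAGLN, but MYOCD and ACTG2 did not exceed 3 reads in any library. The summed normalized count of these markers was 20500 to 21140 with DMSO, 10660 to 11270 with JQ1, while I-BET-762 libraries had 11820 to 12370. Neuronal markers, of which 4 of 8 were detected, summed to 570 to 653 with DMSO, 1118 to 1323 with JQ1, while I-BET-762 libraries had 839 to 888, with ELAVL4 and GAP43 at 3 reads or fewer throughout. Skeletal muscle markers, of which 2 of 6 were detected, summed to 309 to 350, 47.9 to 64.8 and 92.5 to 106 in the same order. Epithelial markers, with 5 of 6 detected, summed to 1229 to 1294, 512 to 602 and 499 to 547, and fibroblast markers, with 3 of 5 detected, to 16930 to 20860, 9348 to 12610 and 12530 to 13880. Of the cardiac muscle, immune and endothelial markers 0 were detected. Smooth muscle, skeletal muscle, epithelial and fibroblast sums were thus lower and the neuronal sum was higher in the treated libraries. The neuronal sum rose through TUBB3 (means of 344, 1086 and 652) and SYP (28.7, 87.6 and 97.7), whereas SNAP25 (199, 44.5 and 77.9), SYT1 (35.0, 21.2 and 29.4) and RBFOX3 (11.8, 0.798 and 2.31) were lower. Not every marker followed its sum, since SMTN had means of 2324, 2644 and 2657, and the skeletal muscle sum was carried by RYR1 (122.5, 38.8 and 66.4) and DES (187, 7.79 and 20.1), which is also counted with smooth muscle. The part of these markers in the results below was not tested.

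To see which channels the untreated cells transcribe, levels were compared between genes as normalized counts per kb of annotated exon, with the exons of all transcripts of a gene merged. A merged length can exceed that of the transcripts present and then understates the level, so the order between genes depends on it. It was 39437 bases for KCNMA1 and 5415 for KCNG1, whose mean normalized counts with DMSO were 5818 and 909. KCNG1, an electrically silent potassium subunit that modifies other voltage-gated channels, had the highest mean with DMSO, 168 ± 12.9 per kb (SD, n = 3), followed by KCNMA1, the pore of the large-conductance calcium-activated potassium (BK) channel, at 148 ± 8.96. KCNH3, a voltage-gated potassium pore of the ether-a-go-go family, stood at 137 ± 8.30, and KCNN4, the intermediate-conductance calcium-activated potassium channel, at 111 ± 7.48. CACNB3, an intracellular beta subunit of voltage-gated calcium channels, followed at 105 ± 8.24. The intervals of 1 SD of KCNG1 and KCNMA1 met, and their order was turned in DMSO replicate 13 (153 and 158 per kb), so the top rank is not resolved. The intervals of KCNMA1 and KCNH3 and of KCNN4 and CACNB3 met as well, but the order within each pair was the same in all 3 DMSO libraries. With JQ1 the order changed, and KCNG1 stood at 216 ± 53.6 and KCNMA1 at 90.7 ± 2.51 per kb, while KCNH3 stood at 32.9 ± 3.58, below KCNN4 at 66.98 ± 7.62 and CACNB3 at 44.2 ± 2.96.

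**Figure D1:**
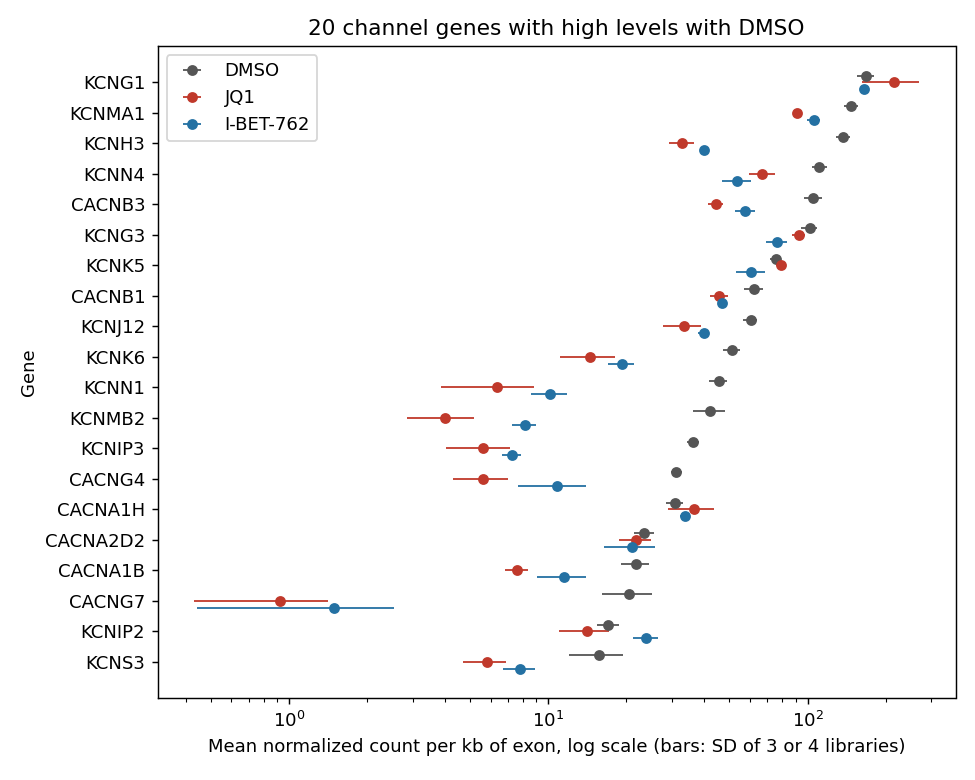
Mean normalized count per kb of exon (log axis) of 20 channel genes with high DMSO levels, with horizontal bars of 1 SD over 3 DMSO, 4 JQ1 or 3 I-BET-762 libraries. KCNG1 has the highest DMSO mean at 168 per kb, with an SD bar that meets that of KCNMA1, and genes such as KCNH3, KCNN1, KCNMB2, KCNIP3 and CACNG7 have both treated points far to the left of the DMSO point.

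More of the channel genes were called lower than higher with each inhibitor. A gene was called when its limma p-value, adjusted over all 14839 tested symbols by the Benjamini-Hochberg method, was under 0.05 and its fold change exceeded 1.5. With JQ1, 36 of the 57 members were called lower against 22.8% of all tested genes, and 4 were called higher against 13.3%. With I-BET-762, 29 were called lower against 17.9% of all tested genes, and 4 were called higher against 8.96%. The median log2 fold change of the members was -1.22 in the JQ1 comparison and -0.76 in the I-BET-762 comparison, whereas that of all tested genes was 0.0076 and -0.00063. Without the 8 members that reached the threshold in DMSO libraries alone, 28 of 49 were called lower and 4 higher with JQ1, at a median of -0.73, and 21 were called lower and 4 higher with I-BET-762, at a median of -0.48. Without KCNN2 as well, 3 of 48 were called higher with each inhibitor. Among these, KCNRG and SCN3B reached the threshold with DMSO in replicate 15 only, so the threshold favored their direction too. Likewise, KCNF1 and CACNB2, called lower with JQ1, reached it in DMSO and I-BET-762 libraries but in no JQ1 library, which favored that direction. In bulk RNA, fewer cells that express a gene and less of its RNA per cell cannot be told apart.

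Weakly expressed genes were called lower more often throughout the transcriptome, so the members were also split at a mean normalized count of 100 over all libraries. Of the 22 members above it, 13 were called lower and 1 higher with JQ1, and 10 lower and 1 higher with I-BET-762. Among all 11072 tested genes above it, JQ1 gave 17.3% lower and 13.1% higher, and I-BET-762 gave 13.1% lower and 8.05% higher. Of the 35 members below it, 23 were called lower with JQ1 and 19 with I-BET-762, against 38.9% and 32.3% of the 3767 tested genes at that level. This count holds all 8 members that had to fall, and without them it was 15 of 27 with JQ1 and 11 of 27 with I-BET-762. Higher were 3 of the 35 with each inhibitor, KCNN2 among them, against 14.2% and 11.6% of the tested genes at that level. These shares describe the members, which were chosen with results of these data known, and no test over the group was made.

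The calls of the inhibitors cannot be set against each other as independent results because both comparisons use the same DMSO libraries. Side by side, 29 members were called lower with both inhibitors and 4 were called higher with both (3 without KCNN2), 7 were called lower with JQ1 alone, and 17 were called with neither. Without the 8 members above the threshold in DMSO libraries alone, 21 were called lower with both. Potassium channel genes made up 36 of the members, with 21 lower and 3 higher with JQ1 and 16 lower and 3 higher with I-BET-762, and 17 of 32 and 12 of 32 were lower without those 8, while 2 were higher with each without KCNN2. Of the 14 calcium channel genes, 10 were lower with JQ1 and 9 with I-BET-762 (7 of 11 and 6 of 11 when those are left out). Of the 7 sodium channel genes, 5 were lower with JQ1 and 4 with I-BET-762 (4 of 6 and 3 of 6 when those are left out), and 1 was higher with each. Over all tested genes the shares were 22.8% lower and 13.3% higher with JQ1 and 17.9% and 8.96% with I-BET-762.

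**Figure D2:**
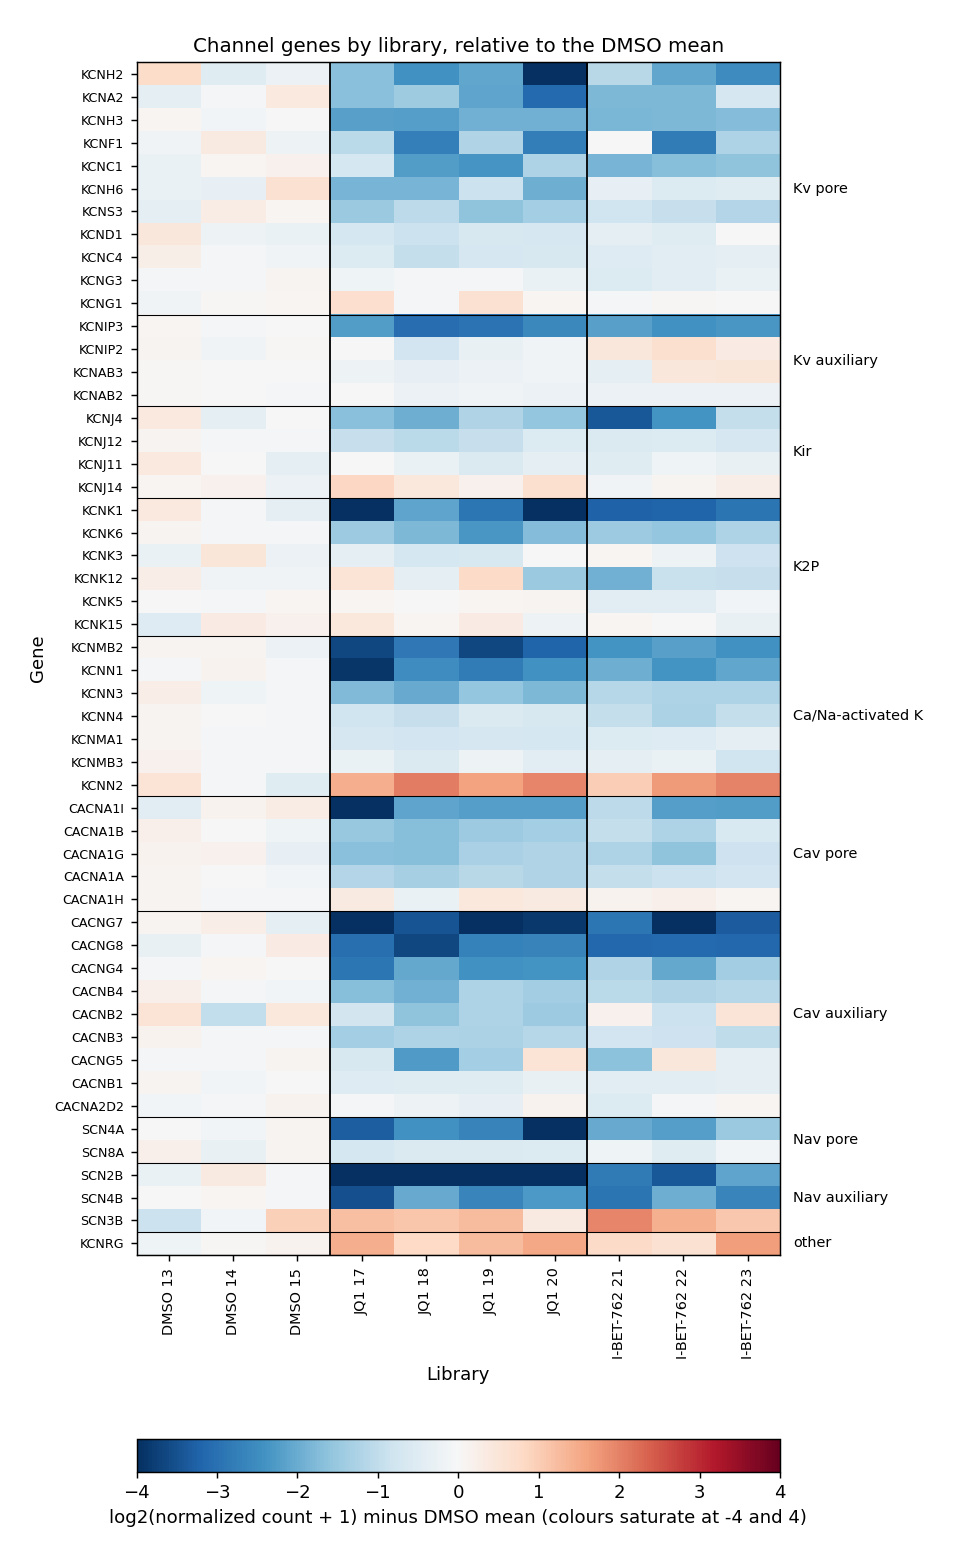
Each row is 1 of 52 channel genes, grouped by subunit class, and each column is 1 of the 10 libraries, and the color gives log2(normalized count + 1) minus the gene's DMSO mean (blue lower, red higher, saturating at 4 in either direction). The JQ1 and I-BET-762 columns are mostly blue over the rows as a whole, with red rows at KCNN2, SCN3B and KCNRG.

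Among the 31 symbols of voltage-gated potassium pores, 14 were members, of which 11 were lower and 1 higher with JQ1, and 7 lower and 1 higher with I-BET-762. Without KCNH2 and KCNA2, which passed through DMSO libraries alone, 9 of 12 and 5 of 12 were lower. For this class and those below, the shares over all tested genes were 22.8% lower and 13.3% higher with JQ1 and 17.9% and 8.96% with I-BET-762. Among tested genes with a mean normalized count under 100, 38.89% were lower with JQ1 and 32.25% with I-BET-762. KCNH3 fell from 651, 577 and 622 normalized counts in DMSO replicates 13, 14 and 15 to 136, 132, 162 and 161 in JQ1 replicates 17 to 20 and 173, 178 and 185 in I-BET-762 replicates 21 to 23. No treated library came near the DMSO libraries. Its log2 fold change was -2.06 ± 0.10 (SE) with JQ1, with an adjusted p of 4.03e-11 by limma, and -1.78 ± 0.11 with I-BET-762, with an adjusted p of 1.35e-09. KCNC1, a fast-gating pore known from rapidly firing neurons, had a mean of 35.1 ± 5.31 (SD, n = 3) with DMSO, 11.9 ± 7.06 (n = 4) with JQ1 and 9.90 ± 0.992 (n = 3) with I-BET-762, at log2 fold changes of -1.64 ± 0.37 and -1.72 ± 0.40 and limma adjusted p of 0.001 and 0.00155. KCNS3, another silent modifier subunit, went from 49.3 ± 11.7 to 18.1 ± 3.40 with JQ1 and 24.4 ± 3.48 with I-BET-762, at log2 fold changes of -1.38 ± 0.24 and -0.97 ± 0.26 and adjusted p of 8.86e-05 and 0.00424.

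KCNH2, the pore of the rapid delayed rectifier that repolarizes heart muscle, and KCNA2, a low-threshold pore of axons, are among the 8 members that reached the threshold in DMSO libraries alone. KCNH2 had 27.1, 11.1 and 13.7 normalized counts with DMSO, 4.40, 2.18, 3.001 and 0 with JQ1 and 6.89, 3.01 and 1.97 with I-BET-762. Summed over libraries and scaled, the DMSO level was 7.26 times that with JQ1 (95% counting interval 3.56 to 16.7) and 4.32 times that with I-BET-762 (2.29 to 8.87). KCNA2 had 12.6, 15.7 and 21.8 with DMSO, 4.40, 5.44, 3.001 and 1.01 with JQ1 and 3.94, 4.01 and 9.84 with I-BET-762, and its DMSO level was 4.93 times (2.66 to 9.85) and 2.83 times (1.63 to 5.13) the treated levels. In both genes every treated library lay below every DMSO library, which the threshold on the level fixed. The intervals cover counting error only and are not a test.

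Among the 4 voltage-gated potassium pores called lower with JQ1 alone, KCNF1 had the largest log2 fold change in the main fit. Its rank above KCNH6 is not resolved, since KCNF1 shrank to -1.184 under 1 alternative whereas KCNH6 stayed at -1.235 or lower. This silent subunit had 11.6, 16.6 and 10.9 normalized counts with DMSO, 5.49, 1.09, 5.002 and 1.01 with JQ1 and 12.8, 1.003 and 4.92 with I-BET-762, a log2 fold change of -1.95 ± 0.63 with JQ1 (limma adjusted p 0.0117) and of -1.34 ± 0.68 with I-BET-762 (adjusted p 0.099). I-BET-762 replicate 21 lay within the DMSO range while the other two I-BET-762 libraries lay below it. No JQ1 library of KCNF1 reached the threshold on the level, which favored lower JQ1 values. The JQ1 call of KCNF1 is thus counted but not read as a test. The others were KCNH6, KCNC4 and KCND1, with JQ1 log2 fold changes of -1.63 ± 0.35, -0.70 ± 0.13 and -0.72 ± 0.22. KCNC4, of the same subfamily as KCNC1, had -0.45 ± 0.14 with I-BET-762 (adjusted p 0.0109), short of the fold threshold. The KCND1 call was lost without DMSO replicate 13, at an adjusted p of 0.0741 and a log2 fold change of -0.49. KCNG1 and KCNG3 were called in neither comparison, and KCNG1 ranged from 879 to 1457 normalized counts in the JQ1 libraries against 828 to 954 with DMSO.

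Of 10 auxiliary subunits of voltage-gated potassium channels in the table, 4 were members and 1 was called against DMSO. KCNIP3, a calcium-binding protein that joins A-type channel complexes and is also known as a DNA-binding repressor, fell from 303, 274 and 288 normalized counts with DMSO to 60.4, 33.7, 36.02 and 47.7 with JQ1 and 62.97, 53.1 and 57.1 with I-BET-762. All treated libraries were far below the DMSO libraries. The log2 fold change was -2.71 ± 0.18 (limma adjusted p 1.67e-09) and -2.30 ± 0.19 (adjusted p 5.53e-08). KCNAB2 and KCNAB3, cytoplasmic beta subunits, were not called. The log2 fold changes of KCNAB2 were -0.16 ± 0.09 and -0.24 ± 0.10, and those of KCNAB3 -0.23 ± 0.21 and 0.18 ± 0.22.

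Inward rectifiers pass potassium most easily near the resting potential. Of their 14 symbols, 4 were members, and 2 of these were called lower with each inhibitor, or 1 of 3 without KCNJ4, which passed through DMSO libraries alone. KCNJ12, a strong inward rectifier, had 353, 318 and 317 normalized counts with DMSO, 174, 156, 172 and 225 with JQ1 and 220.4, 226 and 206 with I-BET-762. The treated libraries all lay below the DMSO libraries, with log2 fold changes of -0.87 ± 0.12 (limma adjusted p 5.56e-06) and -0.60 ± 0.12 (adjusted p 0.000619). The I-BET-762 value sat at the fold threshold and fell short of it without DMSO replicate 13 or I-BET-762 replicate 23, at -0.55 and -0.56, and 9.86% of the gene's 75-base exon stretches have an exact copy elsewhere in the genome. KCNJ4, a related rectifier that reached the threshold in DMSO libraries alone, had 26.1, 14.8 and 20.02 with DMSO, 5.49, 4.35, 8.004 and 6.09 with JQ1 and 0.984, 3.01 and 9.84 with I-BET-762. Its DMSO level was 3.36 times (95% counting interval 2.06 to 5.66) and 4.38 times (2.43 to 8.45) the treated levels. KCNJ11, the pore of the ATP-sensitive channel, and KCNJ14 were not called, at log2 fold changes of -0.28 ± 0.28 and 0.52 ± 0.19 with JQ1 and of -0.32 ± 0.30 and 0.08 ± 0.20 with I-BET-762.

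Tandem-pore potassium channels carry the background leak current of resting cells, and 6 of their 12 symbols were members. KCNK1 and KCNK6, weak inward rectifiers of this family, were lower with both inhibitors, whereas the family members KCNK3, KCNK5, KCNK12 and KCNK15 were not called. KCNK6 had 342, 307 and 297 normalized counts with DMSO, 114, 89.2, 62.03 and 93.3 with JQ1 and 115, 107 and 134 with I-BET-762, at log2 fold changes of -1.83 ± 0.17 (limma adjusted p 6.24e-08) and -1.40 ± 0.18 (adjusted p 4.91e-06). KCNK5 had 285, 273 and 300.3 with DMSO, 303, 279.6, 301 and 310.4 with JQ1 and 213, 213 and 263 with I-BET-762, and its log2 fold changes were 0.06 ± 0.10 and -0.32 ± 0.10 in turn. The JQ1 libraries of KCNK5 overlapped the DMSO libraries, and the I-BET-762 libraries lay below both. KCNK1 reached the threshold in DMSO libraries alone, with 47.5, 35.1 and 28.2 with DMSO, 1.10, 7.62, 4.002 and 1.01 with JQ1 and 2.95, 3.01 and 3.94 with I-BET-762. Its DMSO level was 10.8 times that with JQ1 (95% counting interval 6.07 to 20.8) and 11.1 times that with I-BET-762 (5.84 to 23.8).

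The upstream sequences of KCNK1, KCNK6 and KCNK5 and of the sodium channel subunit gene SCN2B are printed to show how the members differ in base composition just before their start. RefSeq promoter windows on GRCh38.p14 matched 37 of the 57 members, in 64 windows, and the 250 bases before each start were searched for the GC box GGGCGG, known to be bound by SP family factors, on both strands and with copies allowed to overlap. It was present in 54.7% of the members' windows and in 42.6% of the 35116 windows of the table, and the median GC content was 65.4% against 58.0%. The E-box CACGTG was present in 6.25% against 6.35%. KCNK1 and KCNK6 stand for leak channel genes that were lower with both inhibitors, KCNK5 for one that was not called, and SCN2B for the member at 0 in every JQ1 library. Capitals mark GC boxes on either strand.
KCNK1: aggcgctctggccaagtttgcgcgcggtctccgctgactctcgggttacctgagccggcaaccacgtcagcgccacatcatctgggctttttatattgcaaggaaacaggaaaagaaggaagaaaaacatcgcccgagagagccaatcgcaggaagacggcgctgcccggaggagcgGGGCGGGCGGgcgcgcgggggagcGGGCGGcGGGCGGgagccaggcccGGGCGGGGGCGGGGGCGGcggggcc
KCNK6: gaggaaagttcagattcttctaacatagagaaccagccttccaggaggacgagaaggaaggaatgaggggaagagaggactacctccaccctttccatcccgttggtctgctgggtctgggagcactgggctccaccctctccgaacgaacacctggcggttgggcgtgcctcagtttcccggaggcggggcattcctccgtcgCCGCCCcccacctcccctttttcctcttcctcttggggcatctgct
KCNK5: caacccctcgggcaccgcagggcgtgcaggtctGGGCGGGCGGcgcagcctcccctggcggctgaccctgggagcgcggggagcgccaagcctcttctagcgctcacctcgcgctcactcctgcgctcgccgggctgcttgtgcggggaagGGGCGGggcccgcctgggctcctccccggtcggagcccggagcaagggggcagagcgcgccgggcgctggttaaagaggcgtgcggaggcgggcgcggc
SCN2B: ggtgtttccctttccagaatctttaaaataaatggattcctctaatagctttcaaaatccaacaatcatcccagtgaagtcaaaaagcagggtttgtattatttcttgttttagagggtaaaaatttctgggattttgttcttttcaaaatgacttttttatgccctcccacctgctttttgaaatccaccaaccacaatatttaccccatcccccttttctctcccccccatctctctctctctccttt
The windows lie at chr1:233613856-233614105 on the plus strand, chr19:38319595-38319844 on the plus strand, chr6:39229476-39229725 on the minus strand and chr11:118176640-118176889 on the minus strand. GC boxes numbered 7 upstream of KCNK1, 1 of KCNK6, 3 of KCNK5 and 0 of SCN2B, and the GC content was 69.2%, 59.6%, 77.2% and 38.0% in that order. Among the genes lower with both inhibitors, KCNK1 was thus above the members' median GC content and KCNK6 and SCN2B were below it, and KCNK5, which was not called, was above it. Over all matched members, the GC box was in 62.9% of 35 windows of 19 genes lower with both and in 44.8% of the other 29 windows, from 18 genes. Windows of the same gene are not independent. The genes lower with both hold members that had to fall, KCNK1 and SCN2B among them, and a split without such members was not made. The median GC content of these sets of windows was 65.6% and 64.8%, and the differences were not tested.

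Calcium- and sodium-activated potassium channels couple internal calcium or sodium to repolarization, and 7 of their 12 symbols were members. KCNMA1, the BK channel pore, had 6226, 5632 and 5597 normalized counts with DMSO, 3655, 3432, 3619.6 and 3598 with JQ1 and 4009, 4054 and 4439 with I-BET-762. The groups did not overlap, and the gene was lowest with JQ1. Its log2 fold change was -0.70 ± 0.05 with JQ1 (limma adjusted p 6.45e-09) and -0.48 ± 0.06 with I-BET-762 (adjusted p 2.06e-06), the latter short of the fold threshold. KCNMB2, an auxiliary subunit that gives BK channels rapid inactivation, changed far more. It had 162, 162 and 125 with DMSO, 10.99, 19.6, 11.005 and 15.2 with JQ1 and 27.6, 32.1 and 26.6 with I-BET-762, again without overlap between the groups. JQ1 gave a log2 fold change of -3.33 ± 0.23 (adjusted p 2.09e-09) and I-BET-762 one of -2.33 ± 0.24 (adjusted p 5.94e-07), and 32.1% of its exon bases are shared with another annotated gene on the same strand, so the split of its reads is uncertain. KCNMB3, a further BK auxiliary subunit of which 38.0% of exon bases lie opposite PIK3CA exons, had -0.38 ± 0.16 and -0.48 ± 0.17 and was not called.

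KCNN1, a small-conductance calcium-activated channel gene, fell from 184, 212 and 186 normalized counts with DMSO to 12.1, 33.7, 27.01 and 35.5 with JQ1 and 49.2, 36.1 and 45.3 with I-BET-762, and KCNN3, of the same family, fell from 69.6 ± 11.96 (SD, n = 3) to 19.6 ± 2.74 (n = 4) and 29.4 ± 1.01 (n = 3). Their JQ1 log2 fold changes were -2.90 ± 0.28 and -1.77 ± 0.20, at limma adjusted p of 1.39e-07 and 9.85e-07, and those with I-BET-762 were -2.14 ± 0.30 and -1.20 ± 0.22, at 1.51e-05 and 0.000181. KCNN2, a further member of that family, had 4.84, 2.77 and 1.82 with DMSO, 9.89, 15.2, 11.005 and 14.2 with JQ1 and 6.89, 12.03 and 14.8 with I-BET-762. Every treated library was above the DMSO libraries, in which the gene was close to the floor of 3 reads. It reached the threshold in treated libraries alone, and its summed level with JQ1 was 4.04 times that with DMSO (95% counting interval 2.02 to 8.96), while that with I-BET-762 was 3.61 times (1.74 to 8.18). KCNN4 fell from 347 ± 23.4 to 209 ± 23.8 with JQ1 and 167 ± 21.5 with I-BET-762, which gave log2 fold changes of -0.73 ± 0.12 and -1.05 ± 0.12 at adjusted p of 3.17e-05 and 2.16e-06, and was 1 of the 4 genes lower with both for which the fall was not larger with JQ1. The remaining ones were CACNG8, KCNC1 and KCNJ4.

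Voltage-gated calcium channel pores were represented by 5 of 10 symbols, and 4 of the 5 were called lower with each inhibitor, or 3 of 4 without CACNA1I, which had to be lower. CACNA1A, the P/Q-type pore of nerve terminals, had 594, 538 and 509 normalized counts with DMSO, 242, 215, 255.1 and 236 with JQ1 and 284, 302 and 321 with I-BET-762. CACNA1B, the N-type pore, had 244, 209.9 and 191, 73.6, 65.3, 78.03 and 83.2 and 110.2, 91.2 and 139.8 in the same order. In both genes the 3 groups were separate, with JQ1 lowest. The log2 fold changes of CACNA1A were -1.20 ± 0.09 and -0.85 ± 0.09, and those of CACNA1B were -1.50 ± 0.15 and -0.93 ± 0.16, with limma adjusted p of 5.38e-09, 1.24e-06, 2.37e-07 and 0.000141.

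The T-type pores, which open at low voltage, gave different calls. CACNA1G fell from 48.7 ± 9.08 (SD, n = 3) with DMSO to 16.9 ± 3.18 (n = 4) with JQ1 and 20.4 ± 5.81 (n = 3) with I-BET-762, which gave log2 fold changes of -1.47 ± 0.26 and -1.23 ± 0.28 at limma adjusted p of 9.43e-05 and 0.00116. CACNA1H had 287, 251 and 258 with DMSO, 343, 219.8, 354 and 337 with JQ1 and 289, 306 and 279 with I-BET-762. The JQ1 libraries spanned the DMSO range, since JQ1 replicate 18 lay below it and the other JQ1 libraries above it. Its log2 fold change was 0.22 ± 0.14 with JQ1 (95% interval -0.07 to 0.51) and 0.14 ± 0.15 with I-BET-762 (-0.17 to 0.45), neither of them called. CACNA1I, which reached the threshold in DMSO libraries alone, had 12.6, 19.4 and 21.8 with DMSO, 0, 3.26, 3.001 and 3.04 with JQ1 and 7.87, 3.01 and 2.95 with I-BET-762, a DMSO level 7.65 times (95% counting interval 3.77 to 17.6) and 3.91 times (2.15 to 7.58) the treated levels.

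Of 14 auxiliary calcium channel symbols 9 were members, and 6 were called lower with JQ1 and 5 with I-BET-762. Without CACNG7 and CACNG8, which had to be lower, these counts were 4 of 7 and 3 of 7. The members included CACNG7, CACNG8 and CACNG4, whose products carry the gamma subunit name but are known chiefly as partners of AMPA-type glutamate receptors. CACNG7 had 62.95, 69.3 and 44.6 normalized counts with DMSO, 2.198, 4.35, 1.0004 and 3.04 with JQ1 and 6.89, 1.003 and 4.92 with I-BET-762. CACNG8 had 20.3, 24.04 and 31.9 with DMSO, 2.198, 1.09, 3.001 and 3.04 with JQ1 and 1.97, 2.01 and 1.97 with I-BET-762. Both reached the threshold in DMSO libraries alone, which fixed that every treated library lay below the DMSO libraries. The DMSO level of CACNG7 was 22.4 times that with JQ1 (95% counting interval 11.9 to 47.6) and 13.7 times that with I-BET-762 (7.83 to 26.2), and that of CACNG8 was 10.8 times (5.43 to 24.5) and 12.9 times (5.67 to 36.1) the treated levels. These genes are neighbors, CACNG7 at chr19:53909278-53943950 and CACNG8 at chr19:53962937-53990215 on the plus strand, 18987 bases apart in GENCODE V44 on hg38.

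CACNG4 fell from 107, 117 and 111 normalized counts with DMSO to 14.3, 26.1, 20.01 and 20.3 with JQ1 and 48.2, 26.1 and 42.3 with I-BET-762. No treated library reached the DMSO range, and the log2 fold changes were -2.44 ± 0.24 (limma adjusted p 1.42e-07) and -1.54 ± 0.25 (adjusted p 7.3e-05). Its neighbor CACNG5, 69956 bases away on chromosome 17, had 13.6, 13.9 and 15.5 with DMSO, 8.79, 2.18, 5.002 and 21.3 with JQ1 and 3.94, 20.1 and 10.8 with I-BET-762 and was not called. Its treated libraries lay on both sides of the DMSO range.

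Among the beta subunits, which escort the pore to the membrane, CACNB3 and CACNB4 fell with both inhibitors. CACNB3 had 820.3, 714 and 723 with DMSO, 290.1, 319, 314 and 342 with JQ1 and 443, 420.1 and 373 with I-BET-762, at log2 fold changes of -1.25 ± 0.09 (limma adjusted p 2.29e-09) and -0.87 ± 0.09 (adjusted p 6.9e-07). CACNB4 went from 252 ± 31.8 (SD, n = 3) to 85.6 ± 17.9 (n = 4) and 113 ± 4.42 (n = 3), at -1.56 ± 0.15 and -1.15 ± 0.16 and adjusted p of 1.67e-07 and 1.82e-05. In both genes all treated libraries lay below all DMSO libraries. CACNB2 was called with JQ1 alone at -1.26 ± 0.44 (adjusted p 0.0177), but DMSO replicate 14, at 7.40 normalized counts, lay within the JQ1 range, and the call was lost without DMSO replicate 13 (adjusted p 0.0961) or 15 (0.0822). No JQ1 library of CACNB2 reached the threshold on the level, which favored lower JQ1 values, so this call is counted but not read as a test. CACNB1 had -0.44 ± 0.09 and -0.41 ± 0.09, with adjusted p of 0.000228 and 0.00119 but below the fold threshold, and CACNA2D2, an extracellular alpha-2-delta subunit, had -0.11 ± 0.16 and -0.18 ± 0.17.

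Voltage-gated sodium channel pores were represented by 3 of 9 symbols, all 3 lower with JQ1 and 2 of them with I-BET-762. SCN4A, the pore of skeletal muscle, had 62.95, 58.2 and 68.3 normalized counts with DMSO, 5.49, 10.9, 9.004 and 3.04 with JQ1 and 14.8, 13.03 and 21.7 with I-BET-762, at log2 fold changes of -3.10 ± 0.35 (limma adjusted p 7.75e-07) and -1.90 ± 0.37 (adjusted p 0.000364). The groups did not overlap, and JQ1 was lowest. SCN8A, a pore of neurons, was called with JQ1 alone, at -0.60 ± 0.13 (adjusted p 0.000857) against -0.26 ± 0.14 with I-BET-762 (adjusted p 0.132). The JQ1 value sat at the fold threshold and fell short of it without DMSO replicate 13 (-0.50) or 15 (-0.55) or JQ1 replicate 17 (-0.57). It also fell short with 5 in place of 1 added to each count (-0.5845).

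Sodium channel beta subunits are single-pass membrane proteins that modulate the pore and act in cell adhesion. Of their 4 member genes, 2 were called lower and 1 higher with each inhibitor, or 1 of 3 lower without SCN2B, which had to be lower. SCN2B had 16.5, 25.9 and 19.1 normalized counts with DMSO, 0 in all 4 JQ1 libraries and 1.97, 1.003 and 3.94 with I-BET-762. It reached the threshold in DMSO libraries alone, and its DMSO level was at least 6.21-fold higher than that with JQ1, taken against the floor of 3 reads in a library, and 8.89 times that with I-BET-762 (95% counting interval 4.08 to 23.0). SCN4B fell from 73.6, 76.7 and 69.2 with DMSO to 5.49, 17.4, 11.005 and 14.2 with JQ1 and 8.86, 18.05 and 10.8 with I-BET-762. The treated groups overlapped each other and lay far below the DMSO libraries, at log2 fold changes of -2.61 ± 0.34 (limma adjusted p 4.09e-06) and -2.51 ± 0.36 (adjusted p 2.1e-05). SCN4B at chr11:118133377-118152888 and SCN2B at chr11:118162806-118176639, both on the minus strand, are 9918 bases apart.

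SCN3B stood higher with both inhibitors, on few reads. Its normalized counts were 2.91, 5.55 and 12.7 with DMSO, 15.4, 14.1, 16.01 and 8.11 with JQ1 and 26.6, 18.05 and 13.8 with I-BET-762. DMSO replicate 15 lay above JQ1 replicate 20, so the JQ1 and DMSO groups overlapped, whereas the I-BET-762 libraries were all above the DMSO libraries. The log2 fold change was 0.99 ± 0.42 with JQ1 (limma adjusted p 0.0449) and 1.49 ± 0.45 with I-BET-762 (adjusted p 0.00911). Of the DMSO libraries only replicate 15 reached the threshold on the level, which favored higher treated values. The calls of SCN3B are thus counted but not read as tests. The JQ1 call was lost under 15 of 18 alternative settings, both rescalings among them, and leaving out DMSO replicate 13 or 14, JQ1 replicate 17, 18 or 19 or any I-BET-762 library gave adjusted p of 0.0501 to 0.245, the highest without DMSO replicate 13. The I-BET-762 call was lost at an adjusted p of 0.0511 without DMSO replicate 13 and of 0.0506 without I-BET-762 replicate 21.

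KCNRG, the member outside these classes, encodes a soluble protein that hinders the assembly of voltage-gated potassium channels and forms no pore. It had 7.75, 9.24 and 10.01 normalized counts with DMSO, 26.4, 16.3, 23.01 and 28.4 with JQ1 and 15.7, 14.04 and 30.5 with I-BET-762, so that every treated library lay above the DMSO libraries. The log2 fold change was 1.27 ± 0.31 with JQ1 (limma adjusted p 0.00182) and 1.002 ± 0.34 with I-BET-762 (adjusted p 0.0168). Every treated library reached the threshold on the level, but of the DMSO libraries only replicate 15 did, at 10.01. The threshold thus favored higher treated values, and the calls of KCNRG are counted but not read as tests. The I-BET-762 call was lost at an adjusted p of 0.0515 without DMSO replicate 13 and of 0.108 without I-BET-762 replicate 23. Of its exon bases, 66.8% are shared with TRIM13 on the same strand, and the counts cannot be divided between these genes here.

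**Figure D3:**
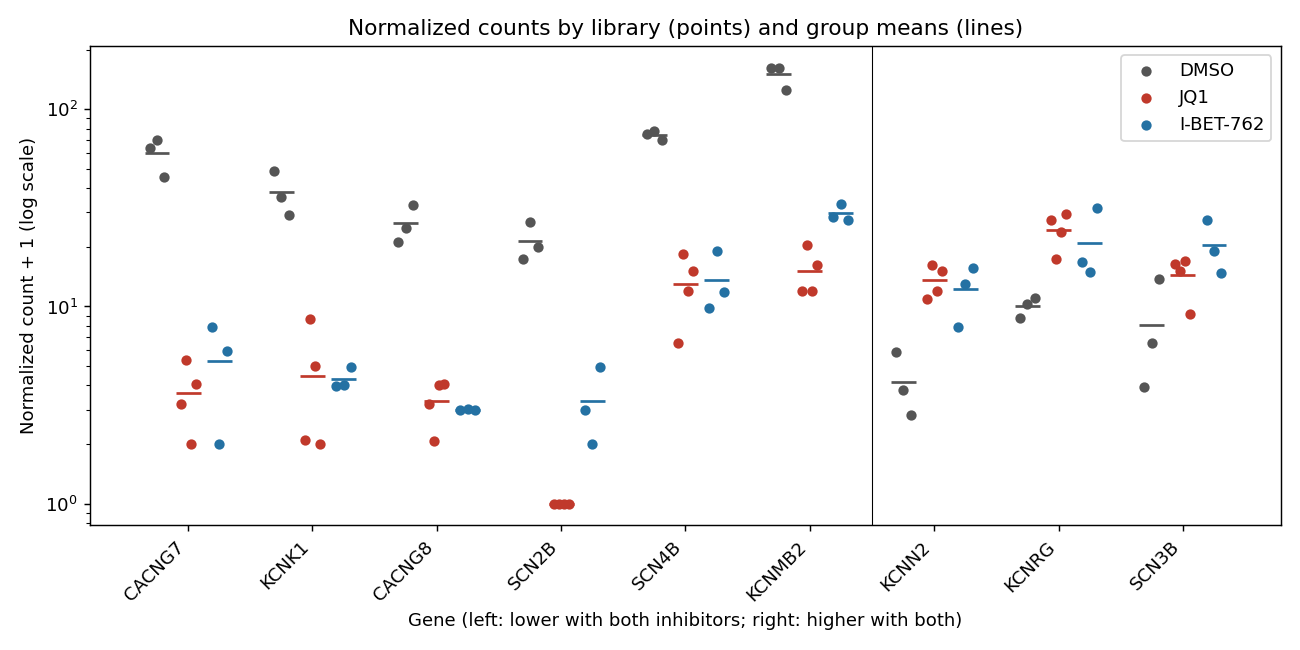
Normalized count + 1 (log axis) in each library for the 6 members with the largest falls shared by both inhibitors (left) and 3 members that stood higher with both (right), with points for libraries and lines for group means. DMSO points lie above every treated point on the left, which the threshold on the level fixed for CACNG7, KCNK1, CACNG8 and SCN2B, with SCN2B at 0 counts in all 4 JQ1 libraries, and on the right every treated point of KCNN2 and KCNRG lies above the DMSO points while 1 DMSO point of SCN3B reaches into the JQ1 points.

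**Figure D4:**
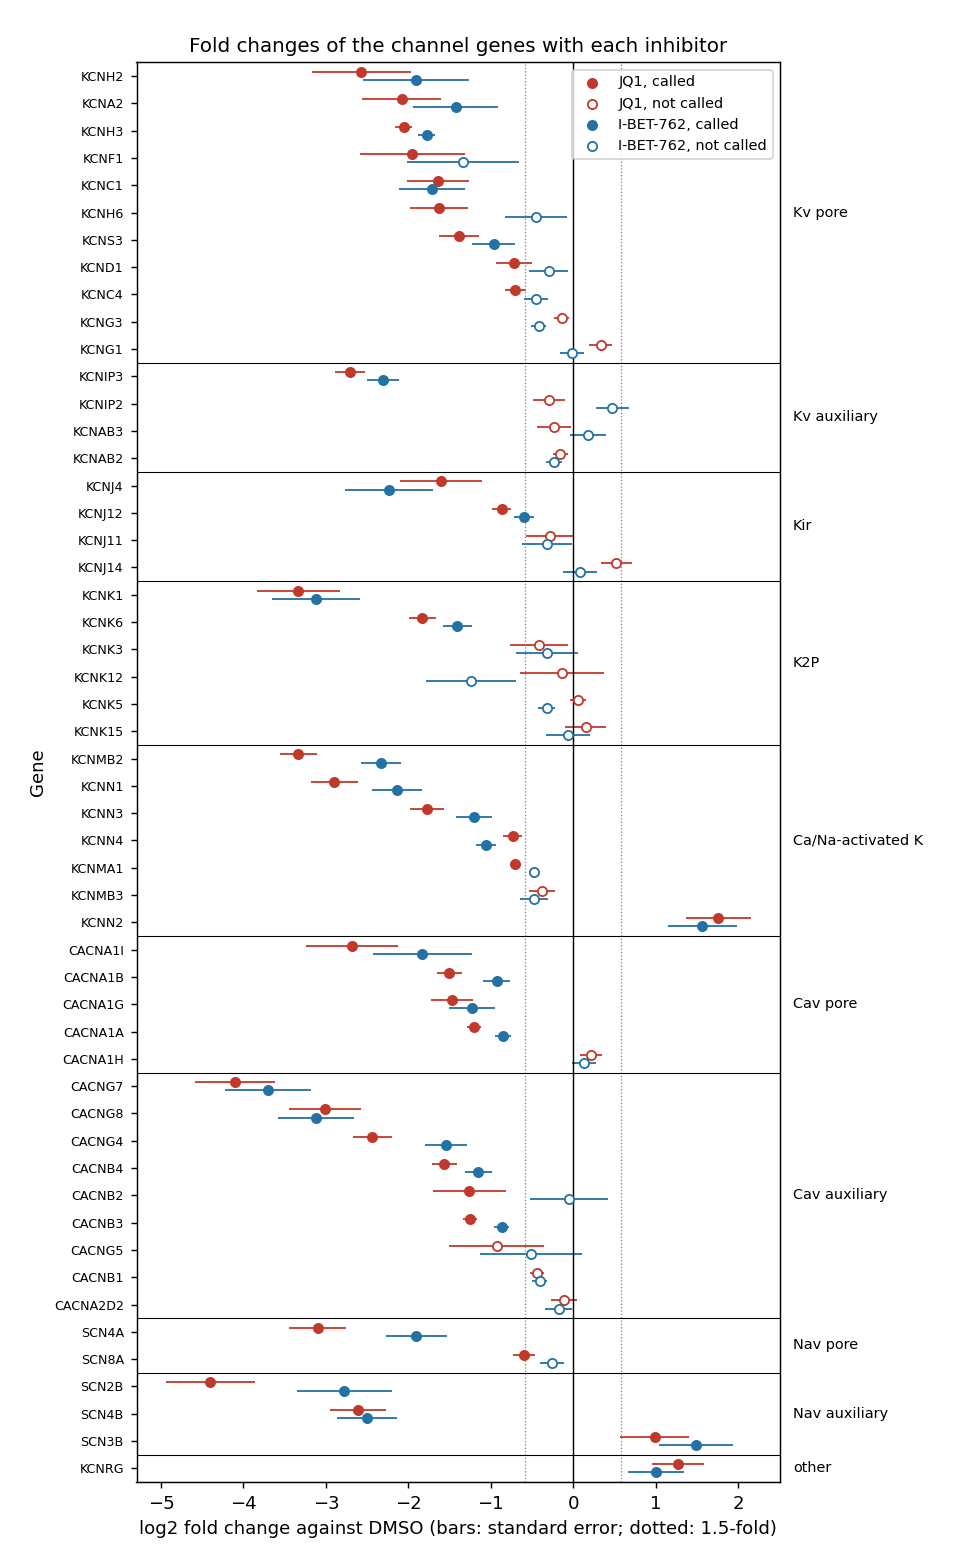
Log2 fold change against DMSO of 52 channel genes with JQ1 (red) and I-BET-762 (blue), with bars of 1 SE from limma, filled points for called genes and dotted lines at 1.5-fold. Most points lie left of 0, and among members limited neither to DMSO nor to treated libraries they run from -3.33 for KCNMB2 with JQ1 to 1.49 for SCN3B with I-BET-762. The point of SCN2B with JQ1 depends on the 1 added to each count, since that group is at 0.

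To ask whether the inhibitors differed at the same dose and time, all 57 members were compared between the JQ1 and I-BET-762 libraries, with p-values adjusted over the 14839 tested genes. Of these pairs, 7 were called lower with JQ1, against 3.59% of all tested genes, and 0 were called higher with JQ1, against 1.73%. All 7 had a mean normalized count under 100, where 35 members lie and 7.11% of all tested genes were called lower, and 0 of the 22 members above it were called. Without the members that passed through DMSO libraries alone, 6 of 49 were called, and 6 of the 27 with a mean under 100. Higher with JQ1 at an unadjusted limma p under 0.05 were 6 members, and limma-voom on the recovered reads called 0. Leaving out 1 library at a time gave 0 to 1 higher calls among the 48 members whose direction the threshold did not fix. Among the genes called were SCN4A, KCNH6, KCNMB2, CACNG4 and KCNIP2. KCNMB2 differed by -1.002 ± 0.23 (SE) on the log2 scale for JQ1 minus I-BET-762 (limma adjusted p 0.00432), and this call was kept under every alternative that tested the gene.

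KCNIP2, an auxiliary subunit of A-type channels in heart muscle, had 62.95, 51.8 and 59.2 normalized counts with DMSO, 58.2, 33.7, 47.02 and 52.7 with JQ1 and 79.7, 90.2 and 72.8 with I-BET-762. The I-BET-762 libraries were all above the DMSO libraries, and the JQ1 libraries lay within the DMSO range or below it. Neither inhibitor was called against DMSO, at -0.29 ± 0.19 and 0.47 ± 0.20, but the difference between them was -0.77 ± 0.19 (limma adjusted p 0.00758). This call was also kept under every alternative that tested the gene. Other fold thresholds are not among these, and at 1.70-fold KCNIP2 would not pass one of 2. KCNIP2 shares 13.1% of its exon bases with an antisense RNA, and the strand setting of the counting is not given in the sources used here.

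KCNH6, a pore related to KCNH2, had 18.4, 17.6 and 34.6 normalized counts with DMSO, 5.49, 5.44, 12.01 and 5.07 with JQ1 and 17.7, 15.04 and 15.8 with I-BET-762. The difference of JQ1 minus I-BET-762 was -1.18 ± 0.35 (limma adjusted p 0.022), a call that was lost without I-BET-762 replicate 21, 22 or 23, at adjusted p of 0.0542 to 0.0819. SCN4A differed by -1.20 ± 0.35 (adjusted p 0.0187) and CACNG4 by -0.90 ± 0.24 (adjusted p 0.011). The SCN4A call was lost without I-BET-762 replicate 23 (0.0981) and in a fit of these 2 groups alone (0.0527), and the CACNG4 call without I-BET-762 replicate 21 (0.0726) or 23 (0.0547). SCN2B is counted among the 7, but with 0 in the JQ1 libraries and 1.003 to 3.94 normalized counts with I-BET-762 both groups were near the floor of 3 reads. Its call depended on the 1 added to each count, with an adjusted p of 0.158 when 5 was added, and no difference between the inhibitors is read from it.

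Where the inhibitors were not called as different, the intervals of the difference varied in width. CACNA1H differed by 0.08 ± 0.14 (95% interval -0.21 to 0.37). CACNG7 differed by -0.40 ± 0.49 (-1.44 to 0.64) and KCNK1 by -0.22 ± 0.50 (-1.29 to 0.85), intervals that span more than 1.5-fold in at least 1 direction, and equality is not shown. KCNK5 was higher with JQ1 than with I-BET-762 by 0.39 ± 0.10 (0.18 to 0.59, limma adjusted p 0.00752), below the fold threshold. Of the 29 genes lower with both inhibitors, 25 had the larger fall with JQ1, or 19 of 21 without the members that passed through DMSO libraries alone, and since both falls are measured from the same DMSO libraries, this is a description.

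**Figure D5:**
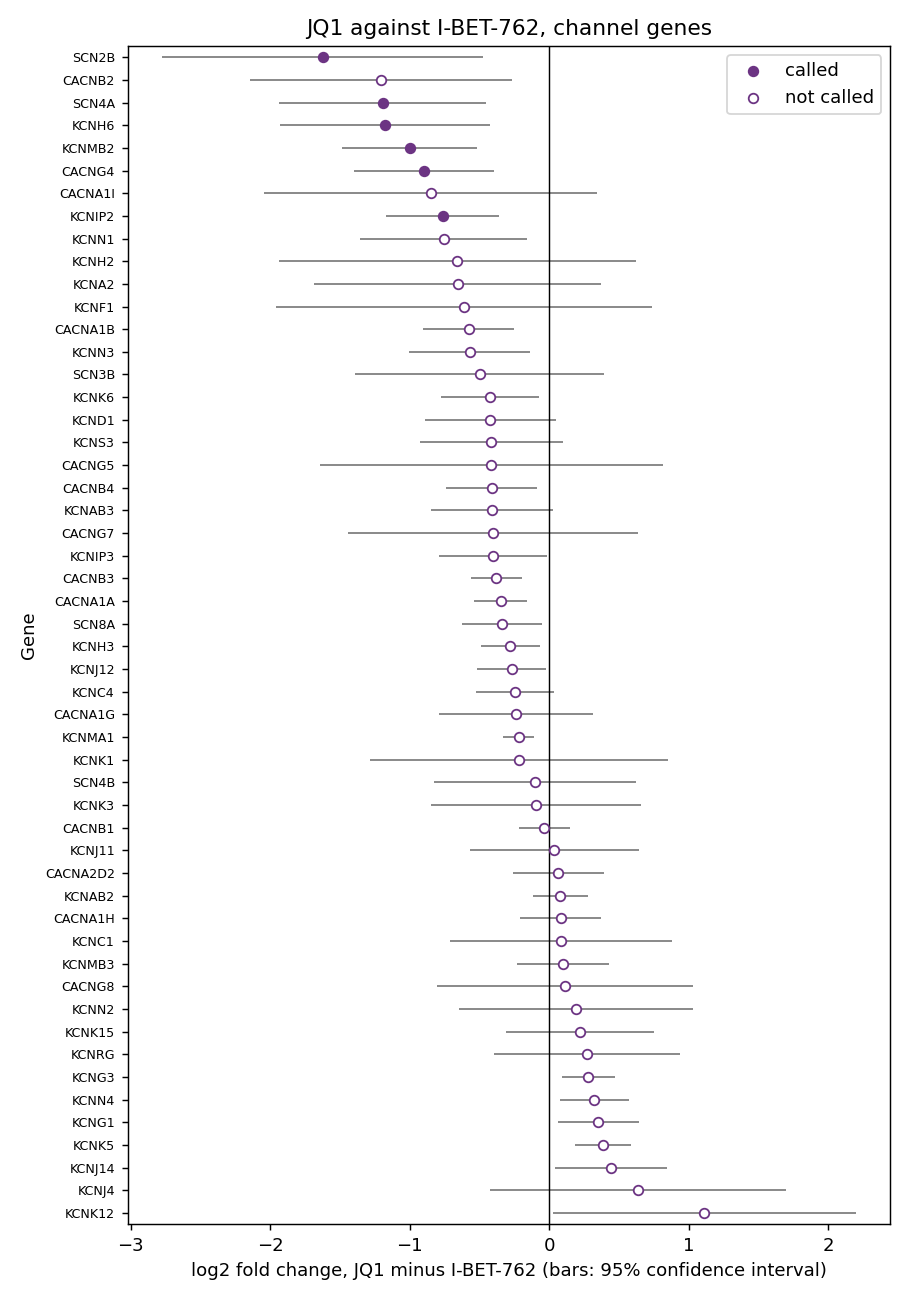
Log2 fold change of JQ1 minus I-BET-762 for 52 channel genes, ordered by size, with bars of the 95% confidence interval and filled points for called genes. The called genes all lie left of 0, with KCNMB2 at -1.002 and KCNIP2 at -0.77, and no gene right of 0 is called. The place of SCN2B depends on the 1 added to each count.

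Other gene lists of the same physiology were counted in the same fit, beside shares over all tested genes of 22.8% lower and 13.3% higher with JQ1 and of 17.9% and 8.96% with I-BET-762. Of 30 partner proteins of these channels, 18 passed the threshold, with 7 lower and 2 higher with JQ1 and 8 lower and 2 higher with I-BET-762. ANK3, the ankyrin that anchors sodium and potassium channels in the axon, had mean normalized counts (± SD) of 337 ± 5.98, 31.9 ± 5.57 and 79.6 ± 5.86, here and below in the order DMSO, JQ1, I-BET-762, and ANK2, the ankyrin of heart muscle, had 1168 ± 14.2, 182 ± 18.8 and 210.5 ± 19.5. Their JQ1 log2 fold changes were -3.38 ± 0.15 and -2.68 ± 0.09. GEM, a small GTPase that inhibits calcium channels, had 602 ± 45.5, 225 ± 19.4 and 219.8 ± 7.62.

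Of 38 other cation channel genes 19 passed, with 6 lower and 2 higher with JQ1 and 5 lower and 3 higher with I-BET-762. TRPM8, the cold-sensing channel, had 114 ± 12.2, 9.10 ± 3.22 and 16.2 ± 7.25. TRPC1 stood higher with both inhibitors, at 166 ± 4.22, 327 ± 32.05 and 285 ± 22.8. Of 32 genes of calcium stores, calcium pumps and exchangers and the sodium pump, 27 passed, with 6 lower and 6 higher with JQ1 and 5 and 5 with I-BET-762. These counts hold genes whose direction the threshold on the level fixed. SLC8A2, with means of 14.8, 3.09 and 2.64, passed through DMSO libraries and was called lower with both. ATP1B2, with means of 2.79, 10.7 and 9.25, passed through treated libraries and was called higher with both. STIM2, the calcium sensor of the endoplasmic reticulum, had 794 ± 29.4, 3646 ± 136 and 3061 ± 66.5 and ITPR1, an inositol trisphosphate receptor, 736 ± 19.4, 2210.0 ± 173 and 1602 ± 91.99, while ITPR3 had 3059.7 ± 459, 703 ± 91.5 and 1026 ± 57.3 and SLC8A1, a sodium-calcium exchanger, 105 ± 23.6, 8.59 ± 4.60 and 15.5 ± 7.21. The medians of the lists were -0.36, -0.08 and -0.14 with JQ1 and -0.40, 0.08 and 0.04 with I-BET-762, in the order partners, cation channels, and stores and pumps.

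REST is a repressor known to silence neuronal channel genes in other tissues, and 7 of the 8 genes listed for its complex passed the threshold. Of these, 2 were called higher with JQ1 and 1 with I-BET-762. REST itself had 6187 ± 181, 5156 ± 193 and 5187 ± 167 normalized counts in the same order, log2 fold changes of -0.26 ± 0.05 and -0.25 ± 0.05 that stayed below the fold threshold. RCOR1, its corepressor, had 3553 ± 91.7, 6665 ± 100.4 and 6112 ± 121.

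The threshold on the level left out 63 channel symbols, of which 51 had a normalized count of at least 10 in 0 libraries, 8 in 1 and 4 in 2. Just outside, KCNAB1 had 4.62 to 18.4 normalized counts with DMSO, 0 to 1.09 with JQ1 and 0 to 2.95 under I-BET-762, and KCNQ1 had 6.37 to 16.5, 0 to 7.003 and 3.94 to 6.89. KCNMB4 had 6.78 to 15.5, 5.49 to 9.13 and 2.95 to 9.02, and KCNJ2 had 5.46 to 8.32, 1.01 to 15.0 and 6.02 to 8.86. Just inside, KCNK12 had 9.10 to 12.6 with DMSO, 3.04 to 18.0 with JQ1 and 1.97 to 5.01 under I-BET-762, and the other 8 members with exactly 3 libraries at the threshold are those that reached it with DMSO alone. Of the 57 members, 35 were at 10 or more in all 10 libraries.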

How the data were processed

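The deposited table holds normalized counts per gene symbol on a log2 scale, made by the authors by trimming reads (FastQC 0.73, Trimmomatic), aligning them with HISAT2 2.2.1 to hg38, counting with featureCounts 2.0.3 on Gencode V41 and scaling with DESeq2, and the authors excluded outlier samples. Values were returned to normalized counts, and 99.7% to 99.8% of values were whole multiples of 1 read (tolerance 0.02). Levels were tested on log2(normalized count + 1) with limma 3.58.1 (trend, R 4.3.3), in 1 fit of the 3 DMSO, 4 JQ1 and 3 I-BET-762 libraries over the 14839 symbols with a normalized count of at least 10 in at least 3 libraries, with Benjamini-Hochberg adjustment. Fold changes on this scale understate the change of low genes. Exon lengths, positions and overlaps came from GENCODE V44. Tables were made with Python 3.11.15, pandas 2.3.3 and numpy 2.4.6. Named with a value in every library were the members with the largest change, by the smaller of their fold changes, among those called in the same direction with both inhibitors (up to 6 each way, and only 4 were higher). Other members called with both, called between the inhibitors, highest per kb or largest in a class with 1 inhibitor were also named, and further members were printed after their values were seen. The members and lists were chosen with earlier results of these data known. The alternatives were other pseudocounts, filters, scalings and models, and each library left out in turn. Other fold thresholds were applied to the counts of calls only, not to the calls of single members. Some members and listed genes are counted here but not reported by name, and the figures show 52 of the 57 members. The columns used were those of the 10 libraries.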

Additional observations from a re-analysis of the deposited data

Results flagged for a closer look

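In 3 of the 51 members tested, the gap of a single JQ1 library to the nearest of the others, as a share of the group's range, exceeded the 95% limit of Dixon's test. Chance alone gives such a gap in about 1 of 20 groups. CACNA1H had 219.8 normalized counts in JQ1 replicate 18 and 337 to 354 in the other JQ1 libraries (gap ratio 0.870). CACNA1I was at 0 in JQ1 replicate 17 and at 3.001 to 3.26 in the others (0.920), a gap of 0 against 3 reads that lies within what a count of 0 allows and does not set that library apart. KCNH6 had 12.01 in JQ1 replicate 19 and 5.07 to 5.49 in the others (0.939).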

How the results depend on the processing

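No paired analysis was possible because the replicate numbers in the labels differ between all groups. With tested genes limited to a mean normalized count of at least 100, 22 members were left, of which 13 were called lower and 1 higher with JQ1, 10 lower and 1 higher with I-BET-762, and 0 between the inhibitors, since fewer members were tested. The 7 calls between JQ1 and I-BET-762 became 11 with libraries rescaled to equal totals, for which the cause was not tested, and 18 without the fold threshold. Leaving out 1 library at a time gave 3 to 4 members higher and 33 to 37 lower with JQ1, and 2 to 4 higher and 24 to 30 lower with I-BET-762, the lowest count of higher calls being without DMSO replicate 13. Between the inhibitors it gave 3 to 10 calls, 3 without I-BET-762 replicate 23 and 10 without JQ1 replicate 20. Of 80 calls of single members, and with other fold thresholds left aside, 64 were kept under every alternative that tested the gene, 16 were lost under at least 1, and 0 reversed. Kept in this sense were 36 of 40 calls with JQ1, 25 of 33 with I-BET-762 and 3 of 7 between the inhibitors. A fold change over 2 left fewer calls, at 30 lower and 3 higher with JQ1. It left 22 lower and 4 higher with I-BET-762, and 5 between the inhibitors. Without the 9 members whose direction the threshold fixed (the 8 passed through DMSO libraries alone and KCNN2), 27 of 31, 19 of 24 and 3 of 6 were kept, and leaving out 1 library gave 2 to 3 of 48 higher and 25 to 29 lower with JQ1 and 1 to 3 higher and 18 to 22 lower with I-BET-762. Between the inhibitors, 0 to 1 of these 48 were then called higher with JQ1 and 3 to 8 lower. Rescaling to equal totals moved the median log2 fold change of all tested genes to -0.18 (JQ1) and -0.10 (I-BET-762) and the members' median to -1.40 and -0.85. Genes at a few reads per library, among them the 8 members above the threshold in DMSO libraries alone, are limited by depth.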
